A study of Neurospora crassa with 12 samples.

Results

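The comparison of HSAF-60 with HSAF-30 is described here: mycelium of Neurospora crassa kept in heat-stable antifungal factor (HSAF) for 60 min, set against mycelium kept in it for 30 min. HSAF is an antifungal compound of the bacterium Lysobacter enzymogenes. The comparison rests on 6 libraries, chosen by their labels, J, K and L for HSAF-60 and G, H and I for HSAF-30, out of 12 in the series, measured on the genes with an NCU identifier. The other 6 libraries are HSAF-0, which had no HSAF, and HSAF-5, taken after 5 min, with 3 libraries each. Every group is mycelium of the wild type strain FGSC2489, and HSAF-5, HSAF-30 and HSAF-60 were all given 40 μM HSAF, so that as far as the labels say HSAF-60 and HSAF-30 differ in the time in HSAF alone. No culture was kept for 60 min without HSAF, and time in HSAF cannot be told apart from time since the culture was handled. The labels give the mycelium an age of 48 h after inoculation and growth at 28 °C in all groups. The study's methods describe a shorter culture at a lower temperature, and which of them holds for these libraries is not settled here. The study calls the replicates of a time point biological without saying whether they were separate cultures, so p-values measure the spread between these libraries.

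The libraries held 11517462 to 15698448 counts. Between 25.2% and 66.1% of the counts in HSAF-60 libraries, and between 34.3% and 93.7% in HSAF-30 libraries, fell on a pair of unannotated features, newGene_189 and newGene_190. An exact permutation test (two-sided, n = 3 each) gave p = 0.5 for the difference of their means, where 0.1 is the smallest p that 3 against 3 allows. Library I of HSAF-30 held the 93.7% and kept only 790513 counts on NCU genes, against 4025770 to 11265740 in the other 5 libraries. The main results are therefore given also without library I. Levels below are CPM, the counts scaled to the total on NCU genes after TMM factors. In each sentence the HSAF-60 values follow the order J, K, L and the HSAF-30 values the order G, H, I. Act (actin) had at least 1184 CPM and Bml (β-tubulin) at least 131 CPM in all 6 libraries. Con-10 and con-8, which mark conidia, had at most 6.40 and 23.0 CPM. Acon-2 and ccg-8, from the list of conidiation and clock-controlled genes below, had more than that in each HSAF-30 library. The median log2 fold change of that list over HSAF-0 was 0.91 after 30 min and 0.68 after 60 min. These values do not settle the developmental state of the mycelium.

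As background, the hyphal wall of N. crassa is built of chitin, which chitin synthases spin out at the tip and at septa, of β-1,3-glucan, and of mannoproteins anchored in it. Damage to the wall is sensed at the plasma membrane and relayed by protein kinase C and a cascade of mitogen-activated protein (MAP) kinases that ends in MAK-1, while calcium entering the cell acts through calmodulin, calcineurin and calmodulin-dependent kinases. Hyphae that are wounded close their septal pores with Woronin bodies, which bud from peroxisomes, and they can fuse with neighbours through the same signalling proteins.

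The HSAF-60 libraries lay nearer to the untreated libraries than the HSAF-30 libraries did. The Euclidean distance over log2 CPM of all tested genes, averaged over the 3 HSAF-0 libraries, was 100.7, 128.7 and 135.8 for HSAF-60 (J, K, L), against 179.0, 154.5 and 205.5 for HSAF-30 (G, H, I). The groups did not overlap, and their means were 121.7 ± 18.5 and 179.7 ± 25.5 (SD, n = 3 each), which is a difference of -57.9 (exact permutation test, two-sided, p = 0.1, the smallest p possible). Without library I the difference was -45.0 (exact permutation test, p = 0.2, again the smallest possible). On log2(FPKM + 1) the values overlapped, with 107.6, 97.4 and 126.1 for HSAF-60 and 135.8, 120.5 and 166.3 for HSAF-30 (exact p = 0.2). Within the groups, the distance was 67.3 between J and K, 73.1 between J and L and 54.2 between K and L of HSAF-60, against 92.3 between G and H, 126 between G and I and 144 between H and I of HSAF-30. The 2 HSAF-30 distances that involve library I were the larger ones, and the one without it still lay above the 3 of HSAF-60.

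**Figure D1:**
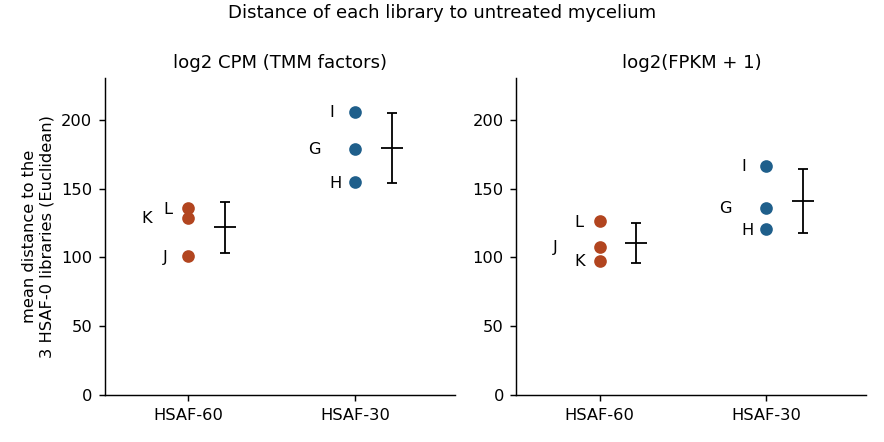
Mean Euclidean distance of each HSAF-60 and HSAF-30 library (points, with letters) to the 3 HSAF-0 libraries, on log2 CPM (left) and on log2(FPKM + 1) (right), with the group mean and SD beside the points. On log2 CPM the 3 HSAF-60 libraries lie between 100.7 and 135.8, all below the HSAF-30 libraries, and on log2(FPKM + 1) library L of HSAF-60 at 126.1 lies above library H of HSAF-30 at 120.5.

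Between HSAF-60 and HSAF-30, 2059 of 7582 tested genes passed the test (edgeR quasi-likelihood, adjusted p under 0.01 by Benjamini-Hochberg, at least 2 fold), or 27.2% of the genes tested. Of these, 1014 were higher in HSAF-60 (13.4%) and 1045 were lower (13.8%), and the libraries of the 2 groups did not overlap for 2006 of the 2059. Over all tested genes the groups did not overlap for 48.4%. Lack of overlap was also a condition for many of the genes named below, and is no further result for those. Without library I, 2130 of 7788 genes passed (27.3%), 921 higher (11.8%) and 1209 lower (15.5%), and 1829 genes passed in both fits. Folds of at least 8 were reached by 252 genes that were higher in HSAF-60 and by 194 that were lower. The direction of the calls went with the level of the genes: of 588 genes that averaged 8 or more in log2 CPM, 63 were higher and 153 lower, and of 3634 that averaged under 4, 428 were higher and 232 lower. Genes with a symbol in the reference, which are the better studied ones, were called lower in 193 cases and higher in 96, out of 1055 tested. Genes without a symbol were called lower in 852 cases and higher in 918, out of 6527. The lists below were picked mostly by symbol. For them the counts of genes with a symbol are a nearer comparison than the shares over all genes.

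**Figure D2:**
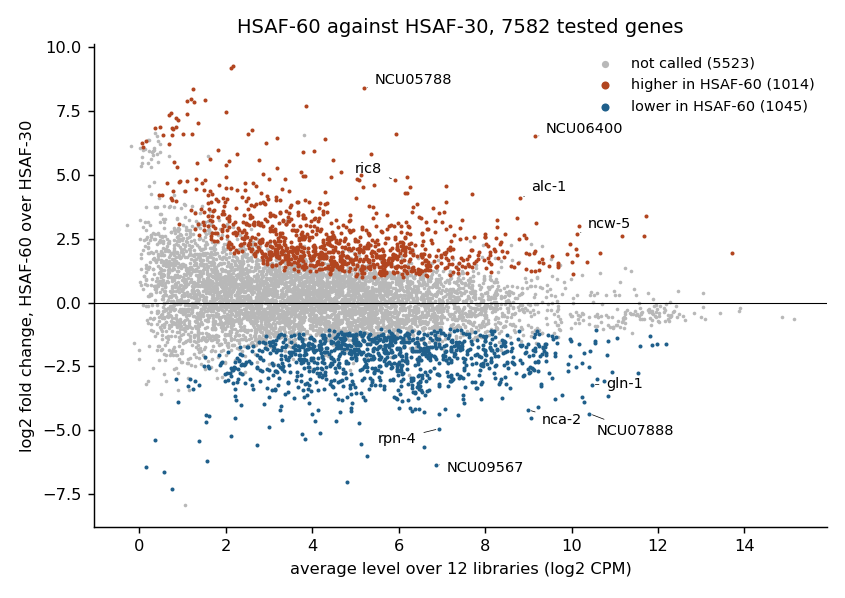
Log2 fold change of HSAF-60 over HSAF-30 (vertical axis) against the average level over the 12 libraries in log2 CPM (horizontal axis), with 1 point for each of 7582 tested genes. Genes called higher are red, genes called lower blue and the rest grey. At average levels under 4, 428 genes were called higher and 232 lower, and some genes named in the text are labelled.

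The split into higher and lower depended on the scaling. The median log2 fold change over all tested genes was 0.10 with TMM factors, 0.17 with DESeq2 size factors, 0.25 with upper quartile factors, 0.52 with the library size on NCU genes, and 1.04 with the library size counted over all features. On log2(FPKM + 1) it was 0.88. A list median given below on one of these scales stands against that of all genes. The share of calls that were higher was 49.2% with TMM, 57.2% with upper quartile factors, 68.2% with the library size on NCU genes, 93.7% with that on all features and 96.2% with limma on the deposited log2(FPKM + 1) values, which are scaled to all features too. Direction is therefore meant relative to the bulk of the NCU genes in what follows, and it would differ for many genes if newGene_189 and newGene_190 were counted into the total.

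**Figure D3:**
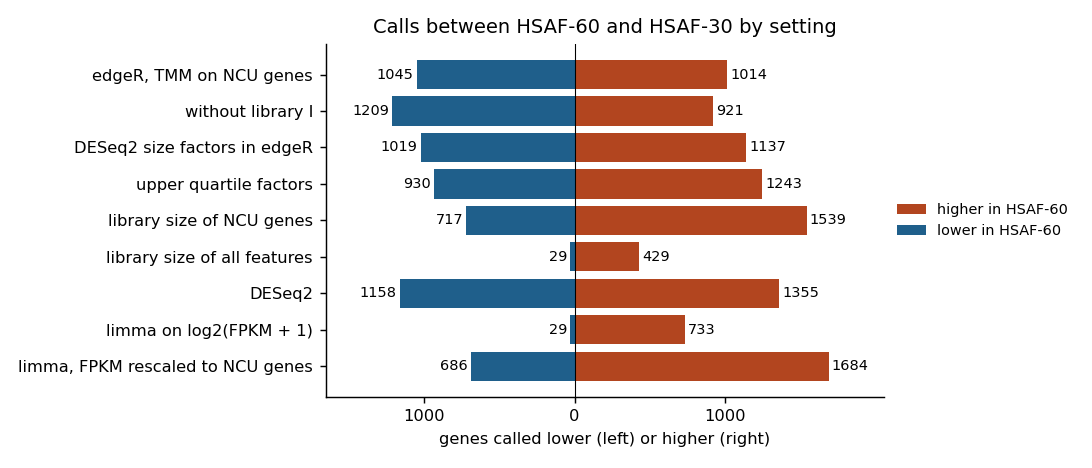
Number of genes called higher (right) or lower (left) in HSAF-60 than in HSAF-30 under 9 ways of scaling or testing the same libraries. The split is 1014 and 1045 with TMM factors, against 429 and 29 when the library size counts all deposited features, and 733 and 29 with limma on log2(FPKM + 1).

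Most genes of chitin synthesis were called lower in HSAF-60, 5 of 7 tested members, and none was called higher, where 13.8% of all tested genes were called lower. Of genes with a symbol, 193 of 1055 were called lower. Without library I 6 genes of the chitin list were lower, and without library K or L 3 were. The median log2 fold change of the list was -1.38, against 0.10 over all tested genes, and it was -0.41 with the library size on all features and -0.13 on log2(FPKM + 1), where no member was called. In those settings all tested genes had medians of 1.04 and 0.88. NCU02592, which the study calls chs-9 and a chitin synthase gene in its text and a chitin synthase activator in its gene annotation, had 15.5, 28.8 and 17.2 CPM in HSAF-60, against 87.0, 235 and 193 CPM in HSAF-30. For NCU02592 the log2 fold change was -3.07 (SE 0.50, adjusted p = 1.95e-04), and -2.99 without library I. All 3 HSAF-60 libraries lay below all 3 HSAF-30 libraries.

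Of the genes with a chs symbol in the reference, chs-1, chs-3 and chs-5 were called lower, and chs-4 and chs-6 were not called. Chs-3 had 131, 210.3 and 243 CPM in HSAF-60, against 852, 664 and 657 CPM in HSAF-30. For chs-3 the log2 fold change was -1.90 (SE 0.30, adjusted p = 1.50e-04), and -1.96 without library I. Gfa1, whose product makes the glucosamine phosphate from which chitin is built, had 649, 739 and 849 CPM in HSAF-60, against 2572, 1973 and 1812 CPM in HSAF-30. For gfa1 the log2 fold change was -1.51 (SE 0.30, adjusted p = 9.13e-04), and -1.61 without library I. Chs-1 had 339.6, 535 and 551 CPM in HSAF-60, against 1000.5, 1065 and 1011 CPM in HSAF-30. For chs-1 the log2 fold change was -1.11 (SE 0.28, adjusted p = 0.00528), and -1.12 without library I. The groups did not overlap. The value was 0.15 on log2(FPKM + 1). Without library G, J, K or L the call of chs-1 was lost (log2 fold changes -1.22 to -0.91 over the 6 fits, adjusted p up to 0.032). Chs-5 fell by 1.38 on the log2 scale (SE 0.35, adjusted p = 0.0048). Without library H, K or L the call of chs-5 was lost (log2 fold changes -1.67 to -1.0 over the 6 fits, adjusted p up to 0.03). Chs-4 did not pass, at -0.94 (SE 0.28, adjusted p = 0.0141), but did without library I (-1.01, adjusted p = 0.00866), and chs-6, the weakest of them with at most 7.66 CPM, was at 0.13 (SE 0.58, adjusted p = 0.869).

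Against HSAF-0, a comparison that shares the HSAF-30 and HSAF-60 libraries with the one above and so adds no independent support, these genes had moved back by different amounts. The log2 fold change over HSAF-0 was 3.30 after 30 min and 0.22 after 60 min for NCU02592, 4.94 after 30 min and 3.04 after 60 min for chs-3, 3.03 after 30 min and 1.53 after 60 min for gfa1 and 2.92 after 30 min and 1.81 after 60 min for chs-1. After 60 min the test against HSAF-0 gave an adjusted p of 0.773 for NCU02592, while chs-3 (adjusted p = 6.48e-06), gfa1 (0.00162) and chs-1 (3.34e-04) were still higher than in untreated mycelium.

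Among genes that make or remodel glucan and mannan, 3 of 13 were called lower and 2 higher, against 13.8% and 13.4% of all tested genes. Without library G, 5 were lower. The list median was -0.29, against 0.10 over all tested genes. It was 0.14 with the library size on NCU genes and 0.48 on log2(FPKM + 1), where all genes had 0.52 and 0.88. The gene with the symbol do, also known as fks, which encodes the β-1,3-glucan synthase, had 336, 265 and 279 CPM in HSAF-60, against 812, 1295 and 1213 CPM in HSAF-30. For do the log2 fold change was -1.91 (SE 0.30, adjusted p = 1.43e-04), and -1.84 without library I. Gel-4, a β-1,3-glucanosyltransferase gene, had 152, 162 and 123 CPM in HSAF-60, against 547, 1019.9 and 293 CPM in HSAF-30. For gel-4 the log2 fold change was -2.09 (SE 0.41, adjusted p = 8.21e-04), and -2.43 without library I. The related gel-3 fell by 1.52 on the log2 scale (adjusted p = 0.00325). Without library H, J, K or L the call of gel-3 was lost (log2 fold changes -1.82 to -1.03 over the 6 fits, adjusted p up to 0.018). The wall glucanase gene NCU05686, named gh16-5 in the study, had 220.1, 269.8 and 199 CPM in HSAF-60, against 456, 705 and 347 CPM in HSAF-30 and did not pass (log2 fold change -1.13, SE 0.40, adjusted p = 0.03). Gel-1 and gh76-5 were the members called higher, at 1.55 and 2.34 on the log2 scale, both under 24 CPM in every library. Without library H, I, J, K or L the call of gel-1 was lost (log2 fold changes 1.30 to 2.01 over the 6 fits, adjusted p up to 0.0417). Without library G or J the call of gh76-5 was lost (log2 fold changes 1.62 to 2.91 over the 6 fits, adjusted p up to 0.0365).

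Genes for wall proteins changed in both directions. Of 17 tested, 8 were called lower and 3 higher, against 13.8% and 13.4% of all tested genes. The median was -1.46 (-1.91 without library I, and 0.19 on log2(FPKM + 1), where all genes had 0.88). The lower ones were 7 acw genes, for wall proteins with a lipid anchor, and ncw-2, and the higher ones were ncw-4, ncw-5 and ncw-6, for wall proteins without that anchor, of which 1 was called without library G, I, K or L. Acw-6 had 15.9, 10.4 and 8.34 CPM in HSAF-60, against 72.2, 315 and 18.2 CPM in HSAF-30. For acw-6 the log2 fold change was -3.56 (SE 0.71, adjusted p = 8.96e-04), and -4.06 without library I. Acw-10 had 45.6, 74.0 and 45.9 CPM in HSAF-60, against 361, 337 and 281 CPM in HSAF-30. For acw-10 the log2 fold change was -2.57 (SE 0.31, adjusted p = 1.75e-05), and -2.67 without library I. Acw-3, among the most strongly expressed of the list, had 2017, 2213 and 1546 CPM in HSAF-60, against 6137, 8649 and 2874 CPM in HSAF-30 (log2 fold change -1.61, adjusted p = 0.00237). Without library H or L the call of acw-3 was lost (log2 fold changes -1.94 to -1.22 over the 6 fits, adjusted p up to 0.0166). In the other direction ncw-5 had 2579, 3217 and 3716 CPM in HSAF-60, against 692, 532 and 235 CPM in HSAF-30. For ncw-5 the log2 fold change was 2.70 (SE 0.48, adjusted p = 3.76e-04), and 2.37 without library I. The 3 HSAF-60 libraries of ncw-5 all lay above the 3 HSAF-30 libraries, whereas ncw-4 and ncw-6 were called only with library I, their adjusted p without it being 0.0111 and 0.0257. The chitinase list had 1 gene called in each direction out of 9: gh18-5 had 206, 411 and 481 CPM in HSAF-60, against 2675, 2320.2 and 2012 CPM in HSAF-30. For gh18-5 the log2 fold change was -2.67 (SE 0.35, adjusted p = 3.46e-05), and -2.77 without library I. Gh18-4 had 106 counts over the HSAF-60 libraries, against 2 counts over the HSAF-30 libraries, a ratio of 23.2 with an exact 95% interval of 6.25 to 194 that covers counting error only. The call of gh18-4 was lost without library G or K (log2 fold changes 3.69 to 7.51, adjusted p up to 0.0215).

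**Figure D4:**
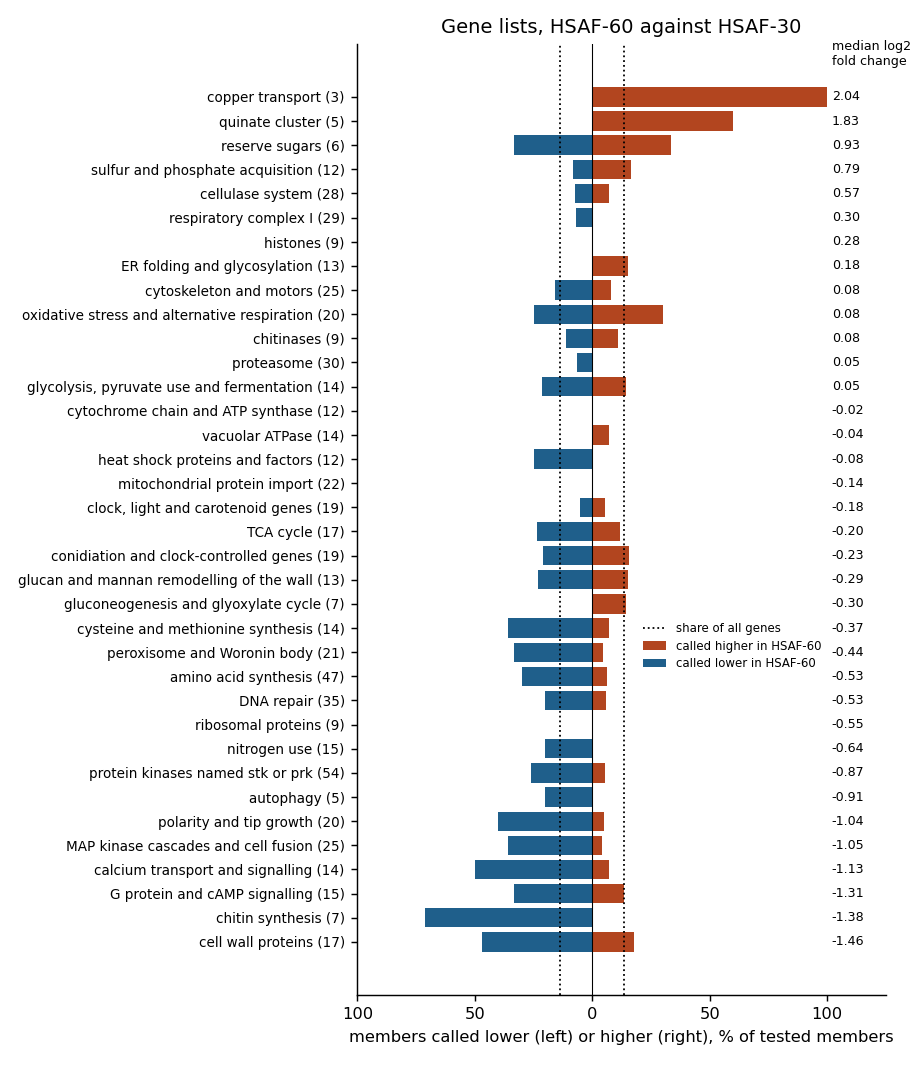
Share of the tested members of each gene list (number tested in brackets) that was called lower (left, blue) or higher (right, red) in HSAF-60 than in HSAF-30, ordered by the median log2 fold change printed at the right. Dotted lines mark the shares over all tested genes, 13.8% lower and 13.4% higher, and chitin synthesis with 5 of 7 called lower lies far to the left of them. Of genes with a symbol, 193 of 1055 were called lower and 96 higher.

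In the list of MAP kinase cascades and cell fusion genes, 9 of 25 were called lower in HSAF-60 and 1 higher, and 15 were not called. Over all tested genes 13.8% were called lower, and over those with a symbol 193 of 1055. The list had a median log2 fold change of -1.05, which was 0.03 on log2(FPKM + 1), where all genes had a median of 0.88. Mak-1, the MAP kinase of the wall integrity cascade, had 47.8, 49.5 and 45.7 CPM in HSAF-60, against 536, 420.3 and 249 CPM in HSAF-30. For mak-1 the log2 fold change was -3.08 (SE 0.32, adjusted p = 8.52e-06), and -3.33 without library I. Mek-1, which encodes the kinase acting on MAK-1, had 171, 183 and 130.1 CPM in HSAF-60, against 683, 1018 and 375 CPM in HSAF-30. For mek-1 the log2 fold change was -2.11 (SE 0.35, adjusted p = 2.07e-04), and -2.40 without library I. The groups did not overlap for either gene, and the kinase and its activator fell together, while mik-1 at the head of this cascade was not called (-0.82, SE 0.59, adjusted p = 0.273).

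In the osmotic stress pathway, os-1, a histidine kinase gene, had 49.5, 51.9 and 48.1 CPM in HSAF-60, against 216, 256 and 158 CPM in HSAF-30. For os-1 the log2 fold change was -2.08 (SE 0.29, adjusted p = 4.90e-05), and -2.25 without library I. Rrg-2, a response regulator gene, was -2.01 on the log2 scale (SE 0.31, adjusted p = 1.24e-04). Hpt-1, which encodes the phosphotransfer protein between the histidine kinases and the response regulators, went the other way, with 424, 413 and 361 CPM in HSAF-60, against 93.4, 96.3 and 54.6 CPM in HSAF-30. For hpt-1 the log2 fold change was 2.28 (SE 0.31, adjusted p = 4.11e-05), and 2.07 without library I. Hyphal anastomosis genes, needed for cell fusion, fell too, namely ham-6 with 9.36, 15.1 and 10.1 CPM in HSAF-60, against 132, 165 and 61.3 CPM in HSAF-30. For ham-6 the log2 fold change was -3.40 (SE 0.37, adjusted p = 1.12e-05), and -3.70 without library I. Ham-8 was at -2.58 and ham-9 at -2.42 on the log2 scale (adjusted p = 8.47e-05 and 1.27e-04). The transcription factor gene adv-1, which is needed for fusion and for fruiting body development, is not in this list. It had 11.8, 10.6 and 9.30 CPM in HSAF-60, against 140.4, 238 and 58.4 CPM in HSAF-30. For adv-1 the log2 fold change was -3.79 (SE 0.44, adjusted p = 1.38e-05), and -4.16 without library I. The calls of rac-1 and os-4 depended on single libraries, at -1.70 and -1.62. Without library G or K the call of rac-1 was lost (log2 fold changes -2.07 to -1.36 over the 6 fits, adjusted p up to 0.0148). Without library H, J or K the call of os-4 was lost (log2 fold changes -1.88 to -1.30 over the 6 fits, adjusted p up to 0.0214).

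Of 20 polarity genes, 8 were called lower, 1 higher and 11 neither. The share lower was 13.8% over all tested genes, and 193 of 1055 genes with a symbol were lower. The polarity median was -1.04. It was 0.10 with the library size on all features and 0.44 on log2(FPKM + 1), where all genes had 1.04 and 0.88. The number of polarity genes lower was 5 without library J and 4 with the 2 groups fitted alone. Spa2, for a polarisome component at the tip, had 17, 25.1 and 17 CPM in HSAF-60, against 67.7, 51.6 and 106 CPM in HSAF-30. For spa2 the log2 fold change was -1.92 (SE 0.36, adjusted p = 5.35e-04), and -1.61 without library I. Pod-6, which encodes a kinase acting with COT-1 in tip extension, was the 1 member called higher (1.30, SE 0.30, adjusted p = 0.00268). Without library K the call of pod-6 was lost (log2 fold changes 1.25 to 1.35 over the 6 fits, adjusted p up to 0.0101). Of 25 genes of the cytoskeleton and its motors, 4 were called lower and 2 higher, against 13.8% and 13.4% of all tested genes. Their median was 0.08 for the cytoskeleton list. Without library K 2 were lower and none higher, and without library G or L none was higher. One of the 4 was bni1, for the formin that nucleates actin cables, with 9.84, 15.3 and 11.8 CPM in HSAF-60, against 37.9, 58.3 and 74.7 CPM in HSAF-30. For bni1 the log2 fold change was -2.20 (SE 0.38, adjusted p = 2.88e-04), and -1.98 without library I.

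Several calcium genes fell steeply. Of 14 tested, 7 were called lower and 1 higher, against 13.8% and 13.4% of all tested genes. The median was -1.13 (0.15 on log2(FPKM + 1), where all genes had 0.88). Cse-1, among the 7, was moved into this list after its value was seen. Nca-2, a calcium-pumping ATPase gene, had 69.4, 105 and 102 CPM in HSAF-60, against 1727, 1131 and 2231 CPM in HSAF-30. For nca-2 the log2 fold change was -4.20 (SE 0.36, adjusted p = 4.43e-06), and -3.96 without library I. Cax, for the exchanger that moves calcium into the vacuole, had 11.1, 5.31 and 6.81 CPM in HSAF-60, against 85.0, 81.6 and 29.7 CPM in HSAF-30. For cax the log2 fold change was -3.08 (SE 0.40, adjusted p = 3.46e-05), and -3.40 without library I. Camk-1, for a calmodulin-dependent kinase, had 291, 559 and 389 CPM in HSAF-60, against 4390.1, 3249.8 and 2171 CPM in HSAF-30. For camk-1 the log2 fold change was -2.98 (SE 0.36, adjusted p = 2.03e-05), and -3.21 without library I. None of these 3 genes had overlapping groups. Cse-1, annotated as a calcium-binding protein in the study, had 59.4, 82.0 and 84.9 CPM in HSAF-60, against 997, 504 and 474 CPM in HSAF-30. For cse-1 the log2 fold change was -3.13 (SE 0.34, adjusted p = 1.04e-05), and -3.32 without library I. Cnb-1, for the regulatory subunit of calcineurin, had 198, 245 and 281 CPM in HSAF-60, against 1885, 1012 and 803 CPM in HSAF-30. For cnb-1 the log2 fold change was -2.36 (SE 0.34, adjusted p = 7.28e-05), and -2.59 without library I.

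Other calcium genes were called on smaller changes, called higher or not called. Calmodulin (cmd) had 297, 310.3 and 348 CPM in HSAF-60, against 1104, 663 and 479 CPM in HSAF-30 (log2 fold change -1.24, adjusted p = 0.00723, and 0.14 on log2(FPKM + 1)). Without library G, J, K or L the call of cmd was lost (log2 fold changes -1.47 to -0.84 over the 6 fits, adjusted p up to 0.0491). Camk-2, which encodes another such kinase, was higher, with 51.1, 53.8 and 56.9 CPM in HSAF-60, against 22.4, 17.4 and 26.8 CPM in HSAF-30. For camk-2 the log2 fold change was 1.31 (SE 0.29, adjusted p = 0.00198), and 1.44 without library I. Nca-1, for a calcium ATPase of the endoplasmic reticulum, was not called, with 203, 162 and 188 CPM in HSAF-60, against 127, 185 and 90.0 CPM in HSAF-30 (0.45, SE 0.32, adjusted p = 0.274). The log2 fold change of cse-1 over HSAF-0 was 3.72 after 30 min and 0.59 after 60 min (adjusted p = 6.11e-07 and 0.19). That of nca-2 was 4.80 after 30 min and 0.60 after 60 min (adjusted p = 1.68e-07 and 0.193), that of cax 2.80 after 30 min and -0.28 after 60 min (3.56e-05 and 0.642) and that of camk-1 3.90 after 30 min and 0.91 after 60 min (7.95e-07 and 0.0606).

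Genes of G protein and cAMP signalling, a list put together after the values had been seen, changed in both directions. Of 15 tested, 5 were called lower and 2 higher (8 and 2 without library I), against 13.8% and 13.4% of all tested genes. The median was -1.31 (0.00 on log2(FPKM + 1), where all genes had 0.88). Gpr-6, for a receptor coupled to G proteins, had 32.3, 46.2 and 29.4 CPM in HSAF-60, against 759, 403 and 297 CPM in HSAF-30. For gpr-6 the log2 fold change was -3.76 (SE 0.41, adjusted p = 1.04e-05), and -4.02 without library I. Gnb-1, for the β subunit, had 22.2, 19.6 and 22.2 CPM in HSAF-60, against 109, 109 and 48.8 CPM in HSAF-30. For gnb-1 the log2 fold change was -2.07 (SE 0.32, adjusted p = 1.19e-04), and -2.35 without library I. Gna-2, for an α subunit, had 34.9, 42.7 and 54.9 CPM in HSAF-60, against 230.4, 278 and 87.1 CPM in HSAF-30. For gna-2 the log2 fold change was -2.18 (SE 0.38, adjusted p = 3.45e-04), and -2.52 without library I. Cr-1, for the adenylyl cyclase that makes cAMP, fell by 1.71 on the log2 scale (adjusted p = 4.51e-04). Ric8, whose product loads GTP onto α subunits, had 67.7, 228 and 329.7 CPM in HSAF-60, against 7.91, 5.90 and 9.57 CPM in HSAF-30. For ric8 the log2 fold change was 4.80 (SE 0.56, adjusted p = 1.46e-05), and 4.91 without library I. Its lowest HSAF-60 library lay far above its highest HSAF-30 library. Its log2 fold change over HSAF-0 was -0.93 after 30 min and 3.87 after 60 min (adjusted p = 0.143 and 6.11e-05).

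Protein kinases whose symbols begin with stk or prk, likewise grouped after the values had been seen, were called lower in 14 of 54 cases and higher in 3 (median -0.87, and 0.47 on log2(FPKM + 1)), and 9 were lower without library K. All tested genes were called lower in 13.8% and higher in 13.4% of cases, with a median of 0.88 on log2(FPKM + 1). Stk-34 had 20.4, 51.3 and 30.6 CPM in HSAF-60, against 285, 319 and 123 CPM in HSAF-30. For stk-34 the log2 fold change was -2.84 (SE 0.40, adjusted p = 5.41e-05), and -3.16 without library I. Stk-39 had 8.13, 5.52 and 5.37 CPM in HSAF-60, against 24.2, 47.0 and 69.9 CPM in HSAF-30. For stk-39 the log2 fold change was -2.84 (SE 0.41, adjusted p = 7.50e-05), and -2.48 without library I. The functions of most of these kinases are not given by the reference.

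Of 21 peroxisome genes tested, 7 were called lower and 1 higher, against 13.8% and 13.4% of all tested genes. The list median was -0.44. It was 0.52 with the library size on all features and 0.45 on log2(FPKM + 1), where all genes had 1.04 and 0.88. Without library K 4 were lower, and without library H 3 were higher. Pex5, the receptor that carries proteins into peroxisomes, had 40.0, 41.1 and 37.3 CPM in HSAF-60, against 277, 304 and 189.6 CPM in HSAF-30. For pex5 the log2 fold change was -2.71 (SE 0.31, adjusted p = 1.26e-05), and -2.88 without library I. Pex13, for a part of the docking site of that receptor, had 84.1, 109 and 131 CPM in HSAF-60, against 589.8, 702 and 319.8 CPM in HSAF-30. For pex13 the log2 fold change was -2.32 (SE 0.33, adjusted p = 6.97e-05), and -2.58 without library I. Hex-1, which encodes the protein of the Woronin body, had 2325, 1879 and 1696 CPM in HSAF-60, against 8257, 6538 and 4113 CPM in HSAF-30. For hex-1 the log2 fold change was -1.68 (SE 0.34, adjusted p = 9.72e-04), and -1.91 without library I. Pex19, a chaperone gene for peroxisomal membrane proteins, was higher, with 121, 76.4 and 86.9 CPM in HSAF-60, against 27.8, 18.3 and 20.1 CPM in HSAF-30. For pex19 the log2 fold change was 2.09 (SE 0.35, adjusted p = 2.10e-04), and 2.04 without library I. Pex3, pex4 and pex14 were called lower with all libraries. Without library I, J, K or L the call of pex3 was lost (log2 fold changes -2.47 to -1.49 over the 6 fits, adjusted p up to 0.0299). Without library H, J, K or L the call of pex4 was lost (log2 fold changes -1.76 to -0.94 over the 6 fits, adjusted p up to 0.0378). Without library K the call of pex14 was lost (log2 fold changes -1.88 to -1.38 over the 6 fits, adjusted p up to 0.0134).

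Genes against oxidative stress and of the alternative respiratory chain were called in both directions, with 6 of 20 higher, 5 lower and 9 not called. The shares over all tested genes were 13.4% higher and 13.8% lower. Cat-2, for a catalase-peroxidase, had 70.9, 83.2 and 70.1 CPM in HSAF-60, against 6.56, 13.9 and 10.5 CPM in HSAF-30. For cat-2 the log2 fold change was 2.85 (SE 0.48, adjusted p = 2.57e-04), and 2.86 without library I. Sod-1, for the copper and zinc superoxide dismutase, had 825, 374 and 362 CPM in HSAF-60, against 113, 211 and 77.6 CPM in HSAF-30. For sod-1 the log2 fold change was 1.95 (SE 0.40, adjusted p = 0.00119), and 1.69 without library I. Trx, for thioredoxin, had 72.4, 71.3 and 85.3 CPM in HSAF-60, against 29.8, 19.8 and 21.1 CPM in HSAF-30. For trx the log2 fold change was 1.68 (SE 0.30, adjusted p = 4.35e-04), and 1.62 without library I. All 3 were higher in HSAF-60 without overlap. In contrast nde-2, for an NADH dehydrogenase outside complex I, had 50.2, 65.4 and 44.0 CPM in HSAF-60, against 372, 525 and 260.4 CPM in HSAF-30. For nde-2 the log2 fold change was -2.86 (SE 0.34, adjusted p = 1.56e-05), and -3.08 without library I. Nde-1 was -2.78 on the log2 scale (adjusted p = 1.41e-05), and aod-1, for the alternative oxidase, had 134, 307 and 231 CPM in HSAF-60, against 1001, 1127 and 648 CPM in HSAF-30. For aod-1 the log2 fold change was -2.05 (SE 0.41, adjusted p = 8.52e-04), and -2.25 without library I. Genes named for glutathione transferases stood on both sides. Gst-1 and gst-2 were at 1.89 and 1.86 on the log2 scale (adjusted p = 0.00546 and 4.18e-04). Without library H, I, J or K the call of gst-1 was lost (log2 fold changes 1.64 to 2.23 over the 6 fits, adjusted p up to 0.0214). Gst-4 had 10.2, 10.2 and 5.75 CPM in HSAF-60, against 141, 36.5 and 48.8 CPM in HSAF-30. For gst-4 the log2 fold change was -3.13 (SE 0.50, adjusted p = 1.57e-04), and -3.35 without library I. Gst-3 was at -1.36 (adjusted p = 0.00718). Without library G, H, J, K or L the call of gst-3 was lost (log2 fold changes -1.68 to -0.96 over the 6 fits, adjusted p up to 0.0499). Of the 29 genes of complex I, in the classical chain, 2 were called lower and none higher.

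Copper transport genes rose together. Tcu-1, which encodes the high-affinity transporter at the plasma membrane, had 22.8, 24.1 and 30.5 CPM in HSAF-60, against 1.51, 3.44 and 2.87 CPM in HSAF-30. For tcu-1 the log2 fold change was 3.33 (SE 0.46, adjusted p = 4.95e-05), and 3.37 without library I. Tcu-3 had 85.4, 77.7 and 101 CPM in HSAF-60, against 20.7, 31.0 and 9.57 CPM in HSAF-30. For tcu-3 the log2 fold change was 2.04 (SE 0.36, adjusted p = 3.40e-04), and 1.77 without library I. Tcu-2 had 313, 440.5 and 491 CPM in HSAF-60, against 179.6, 171 and 129 CPM in HSAF-30. For tcu-2 the log2 fold change was 1.37 (SE 0.28, adjusted p = 0.00117), and 1.24 without library I. All 3 genes of this name were called higher, where 13.4% of all tested genes were. This group too was formed after the values had been seen. Against HSAF-0, tcu-1 was at -3.30 after 30 min and 0.04 after 60 min, while tcu-2 was at -0.10 after 30 min and 1.27 after 60 min (adjusted p = 0.778 and 0.00386).

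Of the 15 genes of nitrogen use, 3 were called lower and none higher, against 13.8% and 13.4% of all tested genes. Without library H, 3 were higher. The median of the list was -0.64, and 0.01 without library I. Gln-1, for glutamine synthetase, had 384, 410.2 and 235 CPM in HSAF-60, against 3938, 3752 and 1879.5 CPM in HSAF-30. For gln-1 the log2 fold change was -3.22 (SE 0.36, adjusted p = 1.15e-05), and -3.49 without library I. Gdh-1, for the NAD-dependent glutamate dehydrogenase, had 303, 314 and 390.2 CPM in HSAF-60, against 3703, 1277 and 2808 CPM in HSAF-30. For gdh-1 the log2 fold change was -2.95 (SE 0.37, adjusted p = 2.59e-05), and -2.89 without library I. Pmg, which is not in this list, and pmb are genes for amino acid permeases of general and basic specificity. They were at -4.24 and -3.25 on the log2 scale (adjusted p = 2.62e-04 and 3.75e-04). Pmb had only 12.4 CPM in library I, close to the 10.3 CPM of library J.

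Of 47 genes of amino acid synthesis, 14 were called lower and 3 higher (median -0.53, -0.84 without library I, 0.22 with the library size on all features and 0.68 on log2(FPKM + 1)), and the number lower lay between 7 and 16 when each library was left out in turn (7 without library H, K or L, and 8 without library J). For all tested genes the shares were 13.8% lower and 13.4% higher. Their medians were 1.04 with the library size on all features and 0.88 on log2(FPKM + 1). Ilv-6, for a subunit of the first enzyme of branched-chain amino acid synthesis, had 19.6, 24.7 and 19.0 CPM in HSAF-60, against 145, 339.5 and 90.0 CPM in HSAF-30. For ilv-6 the log2 fold change was -3.19 (SE 0.44, adjusted p = 4.76e-05), and -3.53 without library I. Arg-2, for the small subunit of the carbamoyl phosphate synthetase of arginine synthesis, had 22.3, 15.5 and 15.8 CPM in HSAF-60, against 99.1, 121 and 115 CPM in HSAF-30. For arg-2 the log2 fold change was -2.64 (SE 0.31, adjusted p = 1.41e-05), and -2.62 without library I. Here the level after 60 min was also below the untreated one, at 0.77 after 30 min and -1.86 after 60 min over HSAF-0 for arg-2 (adjusted p = 0.0353 and 3.12e-04) and 1.07 after 30 min and -2.13 after 60 min for ilv-6 (adjusted p = 0.0388 and 0.00164). His-7 and arg-14 were among the members of the list called higher, at 1.61 and 1.95 on the log2 scale (adjusted p = 9.13e-04 and 1.27e-04). In a list of cysteine and methionine synthesis, put together after the values had been seen, 5 of 14 were called lower and 1 higher (median -0.37), and 3 were lower without library H, J or K. Among the 5 was cys-9, for thioredoxin reductase, with 52.8, 50.1 and 67.9 CPM in HSAF-60, against 747, 731 and 282 CPM in HSAF-30. For cys-9 the log2 fold change was -3.37 (SE 0.39, adjusted p = 1.35e-05), and -3.70 without library I.

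Alc-1, for the allantoicase that breaks down purines, had 752, 751 and 622 CPM in HSAF-60, against 33.8, 54.5 and 34.5 CPM in HSAF-30. For alc-1 the log2 fold change was 4.10 (SE 0.33, adjusted p = 3.33e-06), and 4.00 without library I. Its log2 fold change over HSAF-0 was -4.04 after 30 min and 0.06 after 60 min. Hgt-1, for a high-affinity glucose transporter and in none of the lists, had 5.19, 0.82 and 2.30 CPM in HSAF-60, against 77.4, 62.6 and 44.0 CPM in HSAF-30. For hgt-1 the log2 fold change was -4.38 (SE 0.60, adjusted p = 4.56e-05), and -4.55 without library I. In the list of glycolysis, pyruvate use and fermentation, emp-1 and emp-3 were called higher. These were 2 of 14, and 3 were lower, against 13.4% and 13.8% of all tested genes. When each library was left out in turn, 2 to 5 were higher (most without library H) and 1 to 4 lower (fewest without library K). Emp-1 had 1109, 1365 and 1127 CPM in HSAF-60, against 436, 371 and 382 CPM in HSAF-30 (adjusted p = 0.00101), and emp-3 was at 1.85 on the log2 scale (adjusted p = 0.00136). Cfp, for pyruvate decarboxylase, had 1407, 1697 and 1400.4 CPM in HSAF-60, against 3449.9, 6624 and 3857 CPM in HSAF-30. For cfp the log2 fold change was -1.63 (SE 0.31, adjusted p = 6.63e-04), and -1.75 without library I. Of 6 genes of reserve sugars, 2 were called higher and 2 lower, and of 7 genes of gluconeogenesis and the glyoxylate cycle 1 was higher and none lower. In the first of these lists 3 were higher without library H, 1 without library G or J, and 1 was lower without library K or L. Ccg-9, for trehalose synthase, had 55.7, 54.0 and 50.4 CPM in HSAF-60, against 13.3, 12.9 and 9.57 CPM in HSAF-30. For ccg-9 the log2 fold change was 2.12 (SE 0.31, adjusted p = 7.13e-05), and 2.02 without library I. Gla-1, for a glucoamylase, was at -2.51 (adjusted p = 5.13e-05), and gsy-1, for glycogen synthase, was at 1.75 (adjusted p = 0.00351). Without library G or J the call of gsy-1 was lost (log2 fold changes 1.30 to 2.34 over the 6 fits, adjusted p up to 0.0227).

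**Figure D5:**
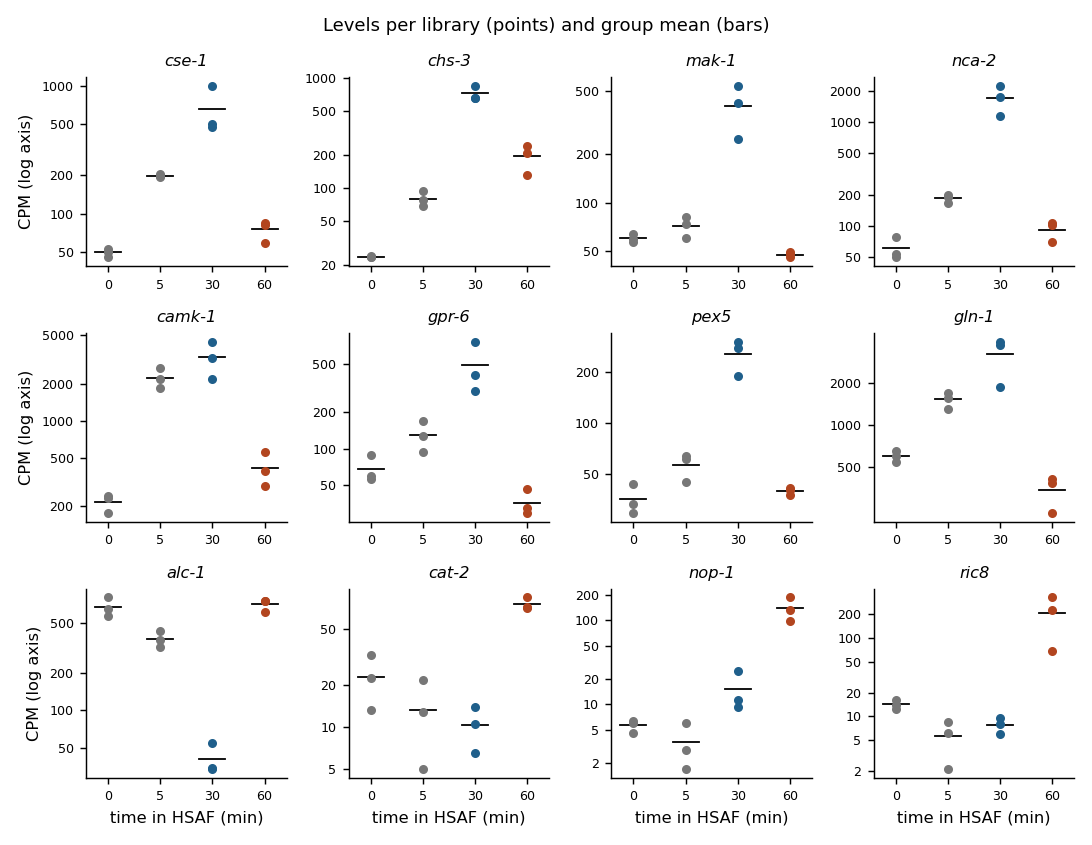
Levels of 12 genes in CPM (log axis) against the time in HSAF, with 1 point per library and a bar at the mean of the 3 libraries of each time. From cse-1 to gln-1 the mean of the HSAF-30 libraries is the highest of the 4 times and the HSAF-60 libraries lie below all HSAF-30 libraries, alc-1 has its lowest libraries after 30 min, and for cat-2, nop-1 and ric8 the 3 HSAF-60 libraries lie above the other 9.

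Protein turnover genes held 1 large change. Rpn-4 carries the name of the transcription factor that controls proteasome genes in budding yeast, and it had 9.02, 12.5 and 7.29 CPM in HSAF-60, against 206, 452 and 219 CPM in HSAF-30. For rpn-4 the log2 fold change was -4.94 (SE 0.44, adjusted p = 4.45e-06), and -5.12 without library I. Of the 30 genes in the proteasome list, rpn-4 and rpn-12 were called lower and none higher. Over all tested genes, 13.8% were called lower and 13.4% higher. The median of the proteasome list was 0.05. Rpn-12 was at -1.32. Without library G, H, J or K the call of rpn-12 was lost (log2 fold changes -1.57 to -1.12 over the 6 fits, adjusted p up to 0.016). Over HSAF-0 the list had a median of 0.72 after 30 min and 0.75 after 60 min, against -0.17 and 0.00 over all tested genes. Rpn-4 itself was at 3.98 after 30 min and -0.96 after 60 min (adjusted p = 1.97e-06 and 0.0845).

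Of 12 heat shock genes, 3 were called lower and none higher, against 13.8% and 13.4% of all tested genes. Among the 3 was hsp90a, with 172, 286 and 367 CPM in HSAF-60, against 1409, 894 and 538 CPM in HSAF-30. For hsp90a the log2 fold change was -1.79 (SE 0.37, adjusted p = 0.00116), and -2.07 without library I. Hsp70-2 had 247, 199.9 and 191 CPM in HSAF-60, against 478, 1223 and 620.4 CPM in HSAF-30. For hsp70-2 the log2 fold change was -1.86 (SE 0.36, adjusted p = 7.04e-04), and -2.0 without library I. In the endoplasmic reticulum list 2 of 13 were called higher and none lower, and the chaperone gene grp78 had 1586, 1620.5 and 1568 CPM in HSAF-60, against 850.4, 639 and 686 CPM in HSAF-30. For grp78 the log2 fold change was 1.13 (SE 0.31, adjusted p = 0.00828), and 1.09 without library I. This call did not survive leaving out any one of the 6 libraries (adjusted p up to 0.027).

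Of 5 autophagy genes, 1 was called lower and none higher, where 13.8% of all tested genes were called lower and 13.4% higher. Of genes with a symbol, 193 of 1055 were called lower, so the list did not stand out. The 1 gene was apg-1, for the kinase that starts autophagy. It had 4.65, 4.50 and 4.41 CPM in HSAF-60, against 20.7, 14.6 and 18.2 CPM in HSAF-30. For apg-1 the log2 fold change was -1.97 (SE 0.40, adjusted p = 0.00109), and -1.96 without library I. The genes named atg3, atg5 and atg12 in the study did not pass. NCU01955 (atg3) had 97.7, 104 and 127 CPM in HSAF-60, against 220.3, 140.2 and 119 CPM in HSAF-30 (-0.55, SE 0.29, adjusted p = 0.141). NCU04662 (atg5) was at -0.79 (SE 0.43, adjusted p = 0.155) and NCU10049 (atg12) at -0.98 (SE 0.52, adjusted p = 0.145), both under 10 CPM in every HSAF-60 and HSAF-30 library. For both, a fall of 2 fold lay within 1 standard error of the estimate. Atg-8, for the ubiquitin-like protein of the autophagosome, had 897, 1653 and 1887 CPM in HSAF-60, against 4212, 1451 and 2648 CPM in HSAF-30 (-0.91, SE 0.39, adjusted p = 0.0697), with library J of HSAF-60 lowest and library G of HSAF-30 highest.

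Of 19 conidiation and clock-controlled genes, 4 were called lower and 3 higher, against 13.8% and 13.4% of all tested genes. Acon-2, which is needed early in the making of conidia, had 2.60, 2.25 and 1.92 CPM in HSAF-60, against 71.4, 70.1 and 25.9 CPM in HSAF-30. For acon-2 the log2 fold change was -4.64 (SE 0.42, adjusted p = 4.45e-06), and -4.95 without library I. Acon-3 was at -3.17 (adjusted p = 2.62e-04). Ccg-8, a clock-controlled regulator gene, had 9.43, 18.2 and 19.2 CPM in HSAF-60, against 189, 175 and 84.3 CPM in HSAF-30. For ccg-8 the log2 fold change was -3.28 (SE 0.38, adjusted p = 1.38e-05), and -3.56 without library I. Nop-1, for an opsin, rose with 133, 98.7 and 188 CPM in HSAF-60, against 9.26, 11.1 and 24.9 CPM in HSAF-30. For nop-1 the log2 fold change was 3.33 (SE 0.45, adjusted p = 4.10e-05), and 3.78 without library I. Of 19 clock, light and carotenoid genes it was the 1 called higher, and phy-1 was the 1 called lower (-2.70, adjusted p = 6.20e-04). Dcl-1, for a Dicer enzyme of RNA silencing, had 15.6, 43.3 and 56.3 CPM in HSAF-60, against 0.67, 3.93 and 3.83 CPM in HSAF-30. For dcl-1 the log2 fold change was 3.90 (SE 0.61, adjusted p = 1.36e-04), and 4.04 without library I. In the quinate cluster, 3 of 5 genes were called higher at levels under 9 CPM, and none without library H or J. The largest of these, qa-2 (catabolic dehydroquinase), had 90 counts over the HSAF-60 libraries and 0 counts over the HSAF-30 libraries, which puts it at least 13.1-fold higher against a floor of 3 counts over the HSAF-30 group. Its call was lost without library G, H, J or K (adjusted p up to 0.0198).

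Most of the largest falls belonged to genes without a symbol, with rpn-4 and pmg as the exceptions. By the rule used (a mean level of 5 or more in log2 CPM, called with and without library I, and groups that did not overlap), NCU09567 came first, with 2.67, 10.8 and 1.53 CPM in HSAF-60, against 407, 432 and 308 CPM in HSAF-30. For NCU09567 the log2 fold change was -6.35 (SE 0.63, adjusted p = 5.72e-06), and -6.51 without library I. The study's annotation describes it as a myo-inositol monophosphatase. NCU03978, annotated as a carboxylesterase, had 1.09, 0.82 and 1.05 CPM in HSAF-60, against 67.3, 86.6 and 42.1 CPM in HSAF-30. For NCU03978 the log2 fold change was -6.0 (SE 0.57, adjusted p = 4.99e-06), and -6.22 without library I. NCU05591, annotated as an ABC transporter named CDR4, had 1.78, 1.64 and 4.12 CPM in HSAF-60, against 63.1, 75.7 and 231 CPM in HSAF-30. For NCU05591 the log2 fold change was -5.55 (SE 0.62, adjusted p = 1.13e-05), and -4.75 without library I. NCU07888, a membrane protein gene by its annotation, was among the most abundant transcripts of HSAF-30, with 97.8, 298 and 232 CPM in HSAF-60, against 5919, 4223 and 2648 CPM in HSAF-30. For NCU07888 the log2 fold change was -4.35 (SE 0.49, adjusted p = 1.15e-05), and -4.60 without library I. The calls of these 4 genes held when any one of the 6 libraries was left out. NCU00694, NCU04556, NCU03735, NCU00247, NCU00010 and NCU08535 were the others of the 12 largest falls, with log2 fold changes between -5.65 and -4.31. For NCU08535 the value rested in part on library I, at -2.96 without it.

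Several of the largest rises, taken by the same rule, were in genes that were nearly silent in HSAF-30. NCU05788 had 63.5, 233 and 110.1 CPM in HSAF-60, against 0.84, 0 and 0 CPM in HSAF-30. For NCU05788 the log2 fold change was 8.41 (SE 0.88, adjusted p = 8.38e-06), and 8.28 without library I. Library G held 5 counts of it and libraries H and I held none. NCU09533 had 387, 74.2 and 111 CPM in HSAF-60, against 0.67, 2.29 and 4.79 CPM in HSAF-30. For NCU09533 the log2 fold change was 6.60 (SE 0.74, adjusted p = 1.15e-05), and 6.99 without library I. NCU06400, annotated as an amidohydrolase, reached the level of strongly expressed genes, with 906, 2484 and 3319.6 CPM in HSAF-60, against 14.6, 4.75 and 62.2 CPM in HSAF-30. For NCU06400 the log2 fold change was 6.51 (SE 0.79, adjusted p = 2.00e-05), and 7.85 without library I. NCU07117, NCU01904, NCU02887, NCU07607, NCU00715, NCU01849, NCU04502 and NCU04487 were the others of the 12 largest rises beside ric8, with log2 fold changes between 4.53 and 5.81. That their groups did not overlap was required by the rule. Among these 11 genes the HSAF-60 libraries differed from each other: library J was the highest for NCU09533, at 387 CPM, and for NCU07117, at 193 CPM, but the lowest for NCU06400, at 906 CPM, and for NCU01849, at 35.0 CPM.

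Against HSAF-0 these genes differed in how far they had moved after 60 min. NCU09567 was at 8.92 after 30 min and 2.57 after 60 min (adjusted p = 2.87e-07 and 0.0112), NCU07888 at 7.20 after 30 min and 2.85 after 60 min (1.68e-07 and 3.41e-04) and NCU05591 at 4.47 after 30 min and -1.08 after 60 min (1.38e-05 and 0.18). NCU06400 was at 0.76 after 30 min and 7.27 after 60 min (0.359 and 1.14e-05) and NCU05788 at -2.88 after 30 min and 5.53 after 60 min (0.019 and 2.79e-05).

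Genes that lie next to each other in the reference and were both called had the same direction in 348 adjacent pairs and opposite directions in 143. All calls together split into 1014 higher and 1045 lower. Neighbours that overlap in the reference were not left out of these pairs, and what share of the pairs they make up was not tested. The longest runs held 4 neighbouring genes, 2 runs higher and 3 lower in HSAF-60. One higher run, NCU03212 to NCU03215, had log2 fold changes of 1.30 to 2.25, and one lower run, NCU03270 to NCU03274, had -3.38 to -1.47. The library kit was not stated to keep strand, so for named genes that overlap a neighbour in the reference the reads of both cannot be told apart. These are dcl-1, emp-3, gfa1, gh18-5, gst-3, gst-4, hex-1, hpt-1, ilv-6, mak-1, nca-1, NCU00694, NCU00715, NCU01904, NCU01955, NCU02887, NCU03735, NCU03978, NCU09533, NCU09567, NCU10049, ncw-5, nde-1, pex19, pex5, pmb, rpn-12, spa2 and tcu-2.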

How the data were processed

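RNA of N. crassa mycelium was sequenced on Illumina machines from 12 libraries. The authors trimmed the reads with Trimmomatic and deposited raw read counts per feature and, in a second table, FPKM values scaled by the authors to all counted features. Not given in the sources used here are the aligner, the counter, the genome build and the role of each machine named. Of the deposited features, the 9729 NCU genes were used, and the 1680 newGene features were left out of library sizes and tests. Gene names came from RefSeq (assembly NC12), where all 9729 matched and 1118 had a symbol. Descriptions of NCU genes without a symbol are the study's annotation.

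Counts were scaled by TMM factors and tested in edgeR 4.0.16 (R 4.3.3), with a quasi-likelihood model of all 12 libraries grouped by time and genes filtered on a minimum count of 10 (7582 genes). A gene was called at a Benjamini-Hochberg adjusted p under 0.01 over all tested genes and a fold of at least 2. CPM are values per library, and SE is that of the log2 fold change. For single values, exact permutation tests (two-sided) were run, where 3 against 3 cannot go below p = 0.1. Other scalings, DESeq2 1.42.0, limma 3.58.1 on log2(FPKM + 1) with a filter of FPKM at least 1 in 3 libraries, other filters and thresholds, and leaving out each library were tried. The edgeR scripts were tested on simulated data.

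Replicates of each group differed by more than sampling noise, with a chi-square per degree of freedom of 27.8 to 195, so none was counted as a duplicate. The comparison and the lists were chosen with earlier results of these data known, and those of protein kinases, of G protein and cAMP signalling, of cysteine and methionine synthesis and of copper transport after the values compared here were seen. Genes named were the 12 largest rises and falls called with and without library I at an average log2 CPM of at least 5 without overlap of the groups, the 10 largest of each with a symbol at an average of at least 4, the 2 largest of each list, and the genes the study names, while further members of the lists were named after their values were seen. A member of the polarity list that this rule names is not reported here. Cse-1 was moved from the chitin to the calcium list after its value was seen. Promoter sequences were not analysed here.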

Additional observations from a re-analysis of the deposited data

Results flagged for a closer look

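The unannotated features newGene_189 and newGene_190 took 93.7% of the counts in library I of HSAF-30, which is above the highest share in an untreated library, 80.4%. They took 27.1%, 66.1% and 25.2% in the HSAF-60 libraries J, K and L, against 34.3% and 38.7% in the HSAF-30 libraries G and H. What these features are was not tested.

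The newGene features were not among the genes tested above, though some of the scalings count them into the total. Of these features, 729 were tested and 70 were called between HSAF-60 and HSAF-30 by the same rule. The calls were 35 higher and 35 lower, or 9.6%, against 27.2% of the NCU genes.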

How the results depend on the processing

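No paired analysis was possible because letters, not numbers shared by the time points, name the libraries. Of 2059 calls (1014 higher, 1045 lower), the number was 458 with the library size on all deposited features (429 higher, 29 lower), 1246 with the 2 groups fitted alone (566 and 680), 3212 at a limit of 0.05 on the adjusted p alone (1677 and 1535), 762 with limma on log2(FPKM + 1) (733 and 29), 726 on log2(FPKM + 0.1) (713 and 13) and 461 on log2(FPKM + 1) without a filter (451 and 10). With the library size on NCU genes 1539 were higher and 717 lower, and with FPKM rescaled to the NCU genes 1684 and 686. When each library was left out in turn, the calls numbered 1521 to 2130, those higher 745 to 1005 and those lower 741 to 1209, and 1191 genes were called in all 6 of these fits. The distances to HSAF-0 kept their direction with upper quartile factors (a difference of -59.4) and on log2(FPKM + 1) (-30.5).

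Of the 126 NCU genes named with a test, 8 fell below the filter on FPKM and had no value on log2(FPKM + 1) or log2(FPKM + 0.1) with it (acon-3, apg-1, chs-6, gh18-4, mik-1, pex3, phy-1 and qa-2), and qa-2 had none with the 2 groups fitted alone. In the settings where a gene had a value, its direction held except as follows. The library size on all features took the call from 84 of them and limma on log2(FPKM + 1) from 73. It was lost for 91 on log2(FPKM + 1) without the filter and for 74 on log2(FPKM + 0.1). The 2 groups fitted alone took it from 23, and a test against a fold of 1.5 from 17. Leaving out 1 library took it from 6 (library I) to 19 (library K). The direction turned for chs-1 (0.15 on log2(FPKM + 1) with or without the filter, 0.16 on log2(FPKM + 0.1)), cmd (0.14 and 0.15), gst-3 (0.059 and 0.17), pex4 (0.026 on log2(FPKM + 0.1)) and rpn-12 (0.050 on log2(FPKM + 0.1)). Among genes not called it turned for atg-8 (0.45 and 0.46), NCU05686 (0.19 and 0.22), chs-4 (0.28 and 0.33), NCU01955 (0.73 and 0.79, and 0.31 with the library size on all features), NCU04662 (0.18, 0.42 and 0.25), NCU10049 (0.12, 0.29 and 0.016), mik-1 (0.55 with the library size on all features and 0.21 on log2(FPKM + 1) without the filter) and chs-6 (-0.27 without library H, with a range up to 0.58 over the libraries left out). The FPKM values and the all-feature library size count newGene_189 and newGene_190 into the total, by construction. Few counts in library I limit what low genes can show.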
